A study of Homo sapiens with 12 samples.

Results

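The genes described here are 50 factors of ribosome biogenesis and the nucleolus, followed over 4 treatments of 3 lymphoma cell lines. They were chosen by symbol, as a list of assembly factors, snoRNP proteins and nucleolar organisers, and matched to the array by gene identifier. Earlier results of these data were known when the list was made, so its shares beside those of all genes are not an independent test. A one-gene probe set was found for 48 of the 50, out of 18239 genes with such a probe set, and the one with the highest mean over the 12 arrays stood for each gene. EBNA1BP2 and GNL3 had none. UTP14A, a protein of the small-subunit processome, lay at log2 levels of 3.35 to 4.32 and did not pass the filter on low values (a log2 level above 4.2 in 3 or more arrays), so 47 genes were tested among 13120.

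Each line had 1 array per treatment, so n = 3 in every group. Combo cells received both CPI203 and IRAKi, for 18 h and 6 h by the protocol. CPI203 blocks BET bromodomains, the readers of acetylated histones, and was used at 500 nM. The other agent, IRAKi, inhibits IRAK kinases, its chemical identity is not stated, and it was used at 50 µM. Control cells carry no further description. The labels give 24 h for Combo, CPI203 and Control but 6 h for IRAKi, and the protocol gives 18 h for CPI203 and 6 h for IRAKi, so treatment and label time differ together wherever IRAKi alone is compared. The lines, all established from human ABC-DLBCL (a diffuse large B cell lymphoma that resembles activated B cells), are replicates 1 (OCI-LY3), 2 (OCI-HBL1) and 3 (OCI-LY10). The p-values of comparisons between treatments cover the spread between these 3 lines, with 1 array per line and treatment.

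Ribosomes are assembled in the nucleolus around an RNA transcribed by RNA polymerase I. Small nucleolar RNPs modify that RNA, the small-subunit processome folds and cleaves its front part, and a separate set of factors builds the large subunit before both are exported to the cytoplasm. Many genes of the pathway are known targets of MYC, and large nucleoli are a long-known feature of fast-growing lymphoma cells.

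The array medians lay between 4.64 and 4.73 on the log2 scale, and the B cell markers MS4A1, CD79A, CD79B, PAX5, IRF4 and CD74 were above the filter in all 12 arrays. Of 13 markers of other cell types, CD3D, CSF1R and DCN were above it in none, and CD3E, CD2, CD14, LYZ, CDH1, COL1A1 and COL1A2 in 1 to 3 arrays. The epithelial genes EPCAM and KRT8 were above it in 4 arrays each, EPCAM in those of OCI-HBL1 and KRT8 in those of OCI-LY10, and KRT18 in 7. Nonspecific probes of the OCI-LY10 IRAKi array stood at 4.00, against 3.64 to 3.79 in the other arrays. In RNA from a whole culture, less RNA in every cell and fewer cells that make it cannot be told apart.

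A gene is said to have fallen or risen where limma's p, adjusted over all genes tested, was below 0.05, and errors of fitted changes are standard errors (SE). Of the 47 genes, 32 fell and none rose in Combo against Control, with a median log2 change of -0.56. The fitted change was negative for all 47, against 50.3% of all genes. Over all genes tested, 16.7% fell in this comparison and 15.4% rose, against 68.1% fallen among these genes. The level was lower in all 3 lines for 40 of the 47, against 27.8% of all genes, and for 21 the Combo and Control arrays did not overlap, with Combo lower, against 8.98% of all genes. Poly-A spike-in probe sets were higher in Combo than in Control arrays by 0.48 ± 0.27 (SD, n = 3). After scaling to them the median change of the 47 genes was -1.04 and that of all genes -0.48. The number fallen was 23 when OCI-LY3 was left out, 25 when OCI-HBL1 was and 23 when OCI-LY10 was.

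**Figure D1:**
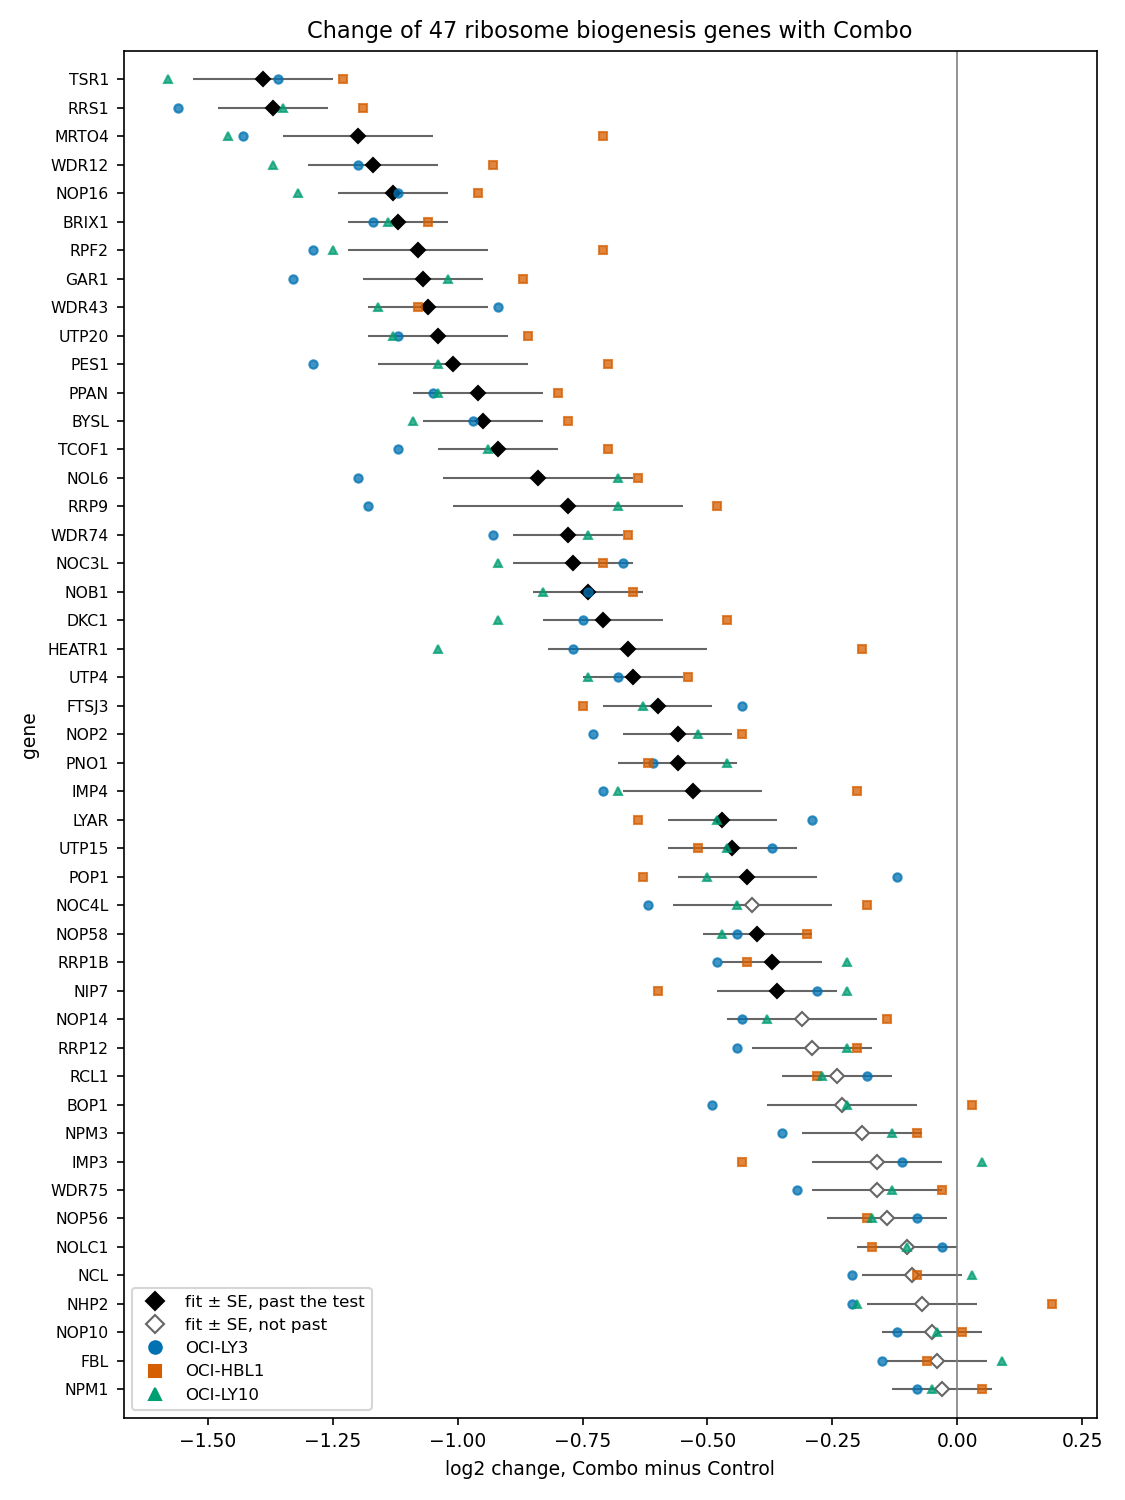
Log2 change in Combo against Control of the 47 tested genes, ordered by size of change. Diamonds give the fitted change with its SE, filled black where the adjusted p was below 0.05. Coloured circles (OCI-LY3), squares (OCI-HBL1) and triangles (OCI-LY10) give the change in each line. All 47 fitted changes lie left of 0, and 32 are past the test.

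All 10 large-subunit factors outside the PeBoW and 5S groups fell, with a median change of -0.77, and NOP16, BRIX1 and MRTO4 fell furthest. MRTO4, which holds the place of a ribosomal stalk protein on the maturing subunit, had log2 levels of 8.25, 9.66 and 8.54 in the Combo arrays, against 9.67, 10.37 and 10 in the Control arrays (OCI-LY3, OCI-HBL1 and OCI-LY10 in turn). Its intermediate values were 8.71, 9.89 and 9.21 in the CPI203 arrays and 9.31, 10.18 and 9.52 in the IRAKi arrays. The Combo array was the lowest of its line each time, and the groups did not overlap, although the OCI-HBL1 Combo array came close to the OCI-LY3 Control array. The fitted change was -1.20 ± 0.15, a fold of 0.435, with an adjusted p of 0.00046 by limma.

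NOP16, a nucleolar protein of early large-subunit particles, had levels of 10.30, 10.08 and 9.37 in the Combo arrays, against 11.42, 11.04 and 10.69 in the Control arrays. Every Combo array lay below every Control array, and the change was -1.13 ± 0.11 (adjusted p = 0.00015, limma). BRIX1, a Brix-domain protein needed to build the large subunit, had 10.50, 10.39 and 10.25 in the Combo arrays, against 11.66, 11.45 and 11.40 in the Control arrays. The groups did not overlap, and its line changes were close to each other, at -1.17, -1.06 and -1.14, and the fitted change was -1.12 ± 0.10 (adjusted p = 8.8e-05, limma). PPAN, a Brix-domain relative of BRIX1, fell by 0.96 ± 0.13 on the log2 scale. WDR74, NOC3L and NOP2 fell by 0.78, 0.77 and 0.56. NOC3L has a yeast relative that takes part in the transport of pre-ribosomes, and NOP2 is an RNA methyltransferase. FTSJ3, another methyltransferase, fell by 0.60 ± 0.11. The smallest falls of the group were 0.36 ± 0.12 for NIP7 and 0.37 ± 0.10 for RRP1B (adjusted p = 0.04 and 0.022, limma).

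**Figure D2:**
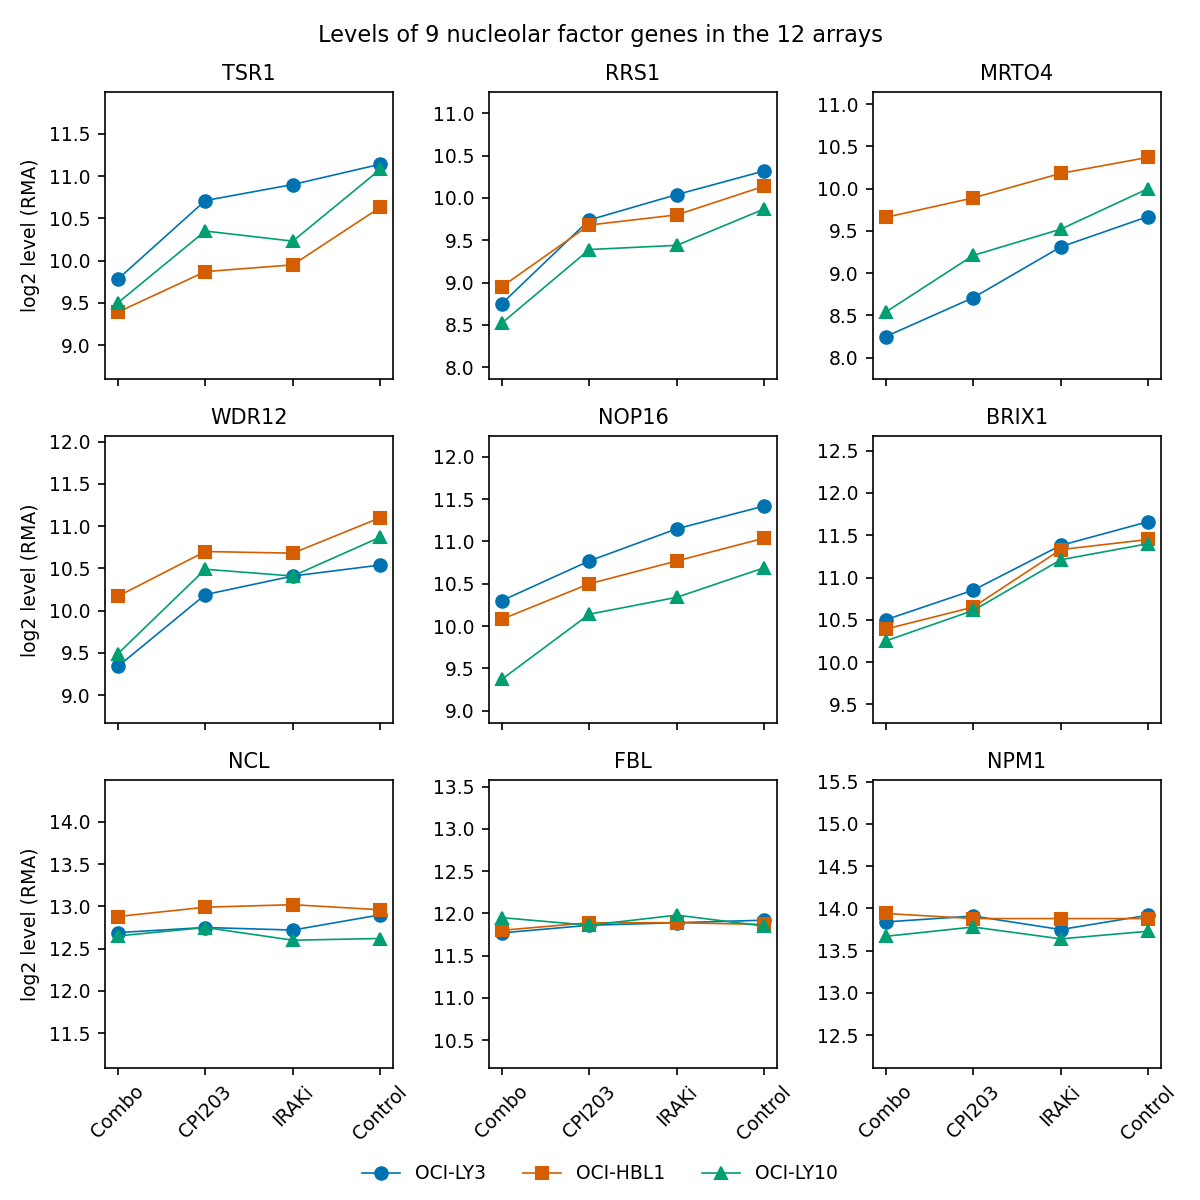
Log2 level of 9 genes in each array, by treatment and line; lines join the arrays of 1 cell line and treatments have no order in time. TSR1, RRS1, MRTO4, WDR12, NOP16 and BRIX1 are lowest in Combo in each line, while the Combo arrays of NCL, FBL and NPM1 lie at most 0.21 below their line's Control array.

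Both proteins that bring the 5S RNP, a preassembled piece of the large subunit, into the particle fell. RRS1 had levels of 8.75, 8.95 and 8.52 in the Combo arrays, against 10.32, 10.14 and 9.87 in the Control arrays. The 2 groups did not overlap, the fitted change was -1.37 ± 0.11 and the fold 0.388 (adjusted p = 8.6e-05, limma). Its partner RPF2 had levels of 8.87, 10 and 8.38 in the Combo arrays, against 10.16, 10.71 and 9.63 in the Control arrays. OCI-HBL1 kept the highest RPF2 level under Combo, above the OCI-LY10 Control array, and the fitted change was -1.08 ± 0.14 (adjusted p = 0.00061, limma).

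The PeBoW complex, which processes the spacer between the RNAs of the large subunit, consists of PES1, BOP1 and WDR12, and 2 of the 3 fell. WDR12 had levels of 9.34, 10.17 and 9.49 in the Combo arrays, against 10.54, 11.10 and 10.87 in the Control arrays. No Combo array reached a Control array, and the change was -1.17 ± 0.13 (adjusted p = 0.00027, limma). PES1 fell by 1.01 ± 0.15, with the groups apart as well. BOP1 changed by -0.23 ± 0.15 (adjusted p = 0.29, limma), and its line changes were -0.49, 0.03 and -0.22. POP1, a protein of the RNase MRP that cuts the pre-rRNA, fell by 0.42 ± 0.14 (adjusted p = 0.042, limma).

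On the small-subunit side, 4 of 5 later maturation factors fell, with a median of -0.74. TSR1, a GTPase-like protein that sits on late particles, had the lowest change of the 47. Its levels were 9.78, 9.39 and 9.50 in the Combo arrays, against 11.14, 10.63 and 11.08 in the Control arrays, with 10.71, 9.87 and 10.35 in the CPI203 arrays and 10.90, 9.95 and 10.23 in the IRAKi arrays. All Combo arrays lay below all Control arrays, and the change was -1.39 ± 0.14, a fold of 0.381 (adjusted p = 0.00019, limma). The size rests on the probe set used: a second TSR1 probe set, at a mean level of 7.86 and above the filter in all 12 arrays, changed by -0.03. BYSL (bystin), needed for the same late steps, fell by 0.95 ± 0.12, NOB1, the nuclease that makes the mature end of 18S RNA, by 0.74 ± 0.11, and PNO1, which binds beside NOB1, by 0.56 ± 0.12. RRP12, an export factor, changed by -0.29 ± 0.12 (adjusted p = 0.11, limma).

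Within the processome, 4 of 5 UTPA proteins, which bind the front of the nascent pre-rRNA, fell, with a median of -0.65. WDR43 fell by 1.06 ± 0.12, HEATR1 by 0.66 ± 0.16, UTP4 by 0.65 ± 0.10 and UTP15 by 0.45 ± 0.13, while WDR75 changed by -0.16 ± 0.13 without passing the test. Of 8 other processome factors 4 fell: UTP20 by 1.04 ± 0.14, NOL6 by 0.84 ± 0.19, RRP9, a U3 snoRNP protein, by 0.78 ± 0.23, and IMP4, which binds U3 RNA, by 0.53 ± 0.14. NOC4L and NOP14, whose yeast relatives work as a pair, changed by -0.41 ± 0.16 and -0.31 ± 0.15, and RCL1 and IMP3 by -0.24 ± 0.11 and -0.16 ± 0.13, none past the test. The size for several of these genes rests on the probe set used. Both other probe sets of NOP14 changed more, by -0.66 ± 0.15 and -0.60 ± 0.16, as did those of UTP15, by -1.60 and -1. Of the 6 others of NOL6, 1 changed by -0.88 and the rest by -0.04 to -0.42, and those of HEATR1 changed by -1.04, -0.09 and -0.05. HEATR1 had the widest range between lines of the 47, with a change of -1.04 in OCI-LY10, -0.77 in OCI-LY3 and -0.19 in OCI-HBL1, each of 1 array against 1 and untested. MRTO4 and RRP9 came next, and the smallest change of all 3 genes was in OCI-HBL1.

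The snoRNP core proteins divided. Of the H/ACA proteins, which carry out pseudouridylation, GAR1 and DKC1 fell and NHP2 and NOP10 did not pass the test. GAR1 had levels of 8.73, 9.57 and 8.93 in the Combo arrays, against 10.06, 10.43 and 9.95 in the Control arrays, with no overlap, and fell by 1.07 ± 0.12 (adjusted p = 0.00028, limma). DKC1, the pseudouridine synthase itself, fell by 0.71 ± 0.12. NOP10 had levels of 10.77, 11.01 and 10.60 in the Combo arrays, against 10.89, 11 and 10.64 in the Control arrays, a change of -0.05 ± 0.10, and NHP2 changed by -0.07 ± 0.11. The NOP10 values of the 2 groups were interleaved. Of the box C/D proteins, which belong to the particle for ribose methylation, NOP58 fell by 0.40 ± 0.11 and NOP56 changed by -0.14 ± 0.12 (adjusted p = 0.39, limma). FBL, the methyltransferase of that particle, had 11.77, 11.80 and 11.95 in the Combo arrays, against 11.92, 11.87 and 11.85 in the Control arrays. These groups overlapped, and the change was -0.04 ± 0.10 (adjusted p = 0.81, limma).

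NPM1 and NCL, the best known nucleolar proteins, did not pass the test. NPM1 (nucleophosmin), a histone-binding chaperone of the outer nucleolus, had levels of 13.84, 13.94 and 13.67 in the Combo arrays, against 13.92, 13.88 and 13.73 in the Control arrays. NCL (nucleolin), an RNA-binding protein of the nucleolus, had 12.69, 12.88 and 12.65 in the Combo arrays, against 12.90, 12.96 and 12.62 in the Control arrays. Combo and Control arrays of both genes overlapped, and the changes were -0.03 ± 0.10 for NPM1 and -0.09 ± 0.10 for NCL (adjusted p = 0.87 and 0.58, limma). NOLC1, a chaperone of snoRNPs, changed by -0.10 ± 0.10 and NPM3, a relative of NPM1, by -0.19 ± 0.12, neither past the test. Both other NOLC1 probe sets, above the filter in all 12 arrays, changed by -0.70 ± 0.13 and -0.59 ± 0.12. TCOF1 (treacle), which works with RNA polymerase I, and LYAR, a zinc-finger protein of the nucleolus, were the 2 of 6 organisers that fell, by 0.92 ± 0.12 and 0.47 ± 0.11. The other 4 probe sets of TCOF1 changed by -0.19 to -1.49.

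**Figure D3:**
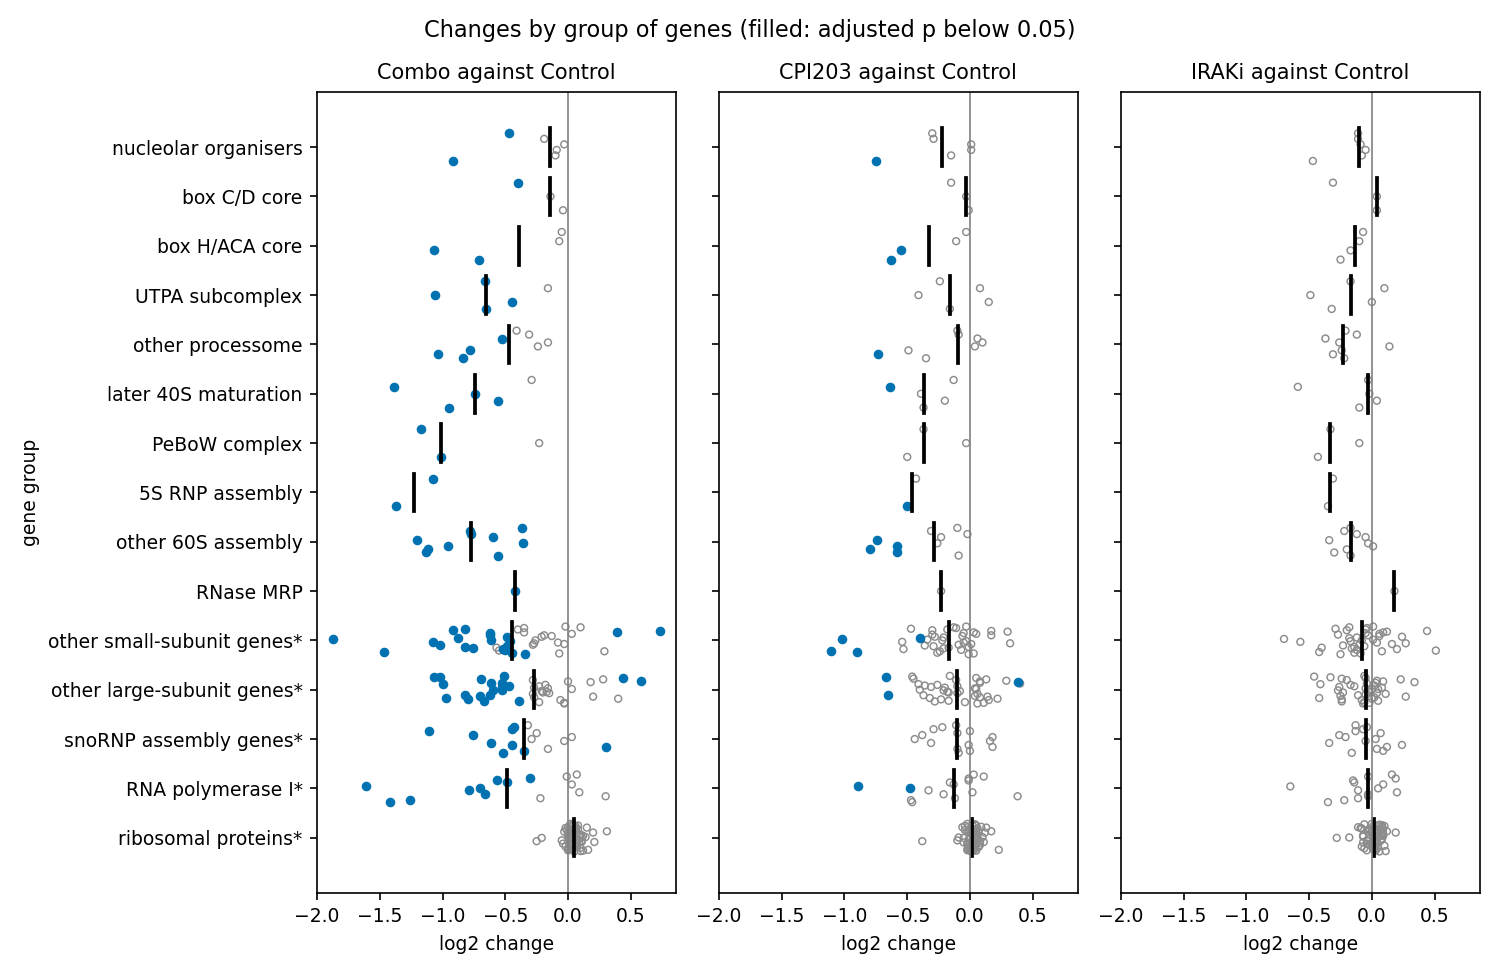
Log2 change of each gene by role group and pathway list (starred lists hold no members) in the 3 comparisons named on the panels; bars are medians and filled points have an adjusted p below 0.05. In Combo against Control the medians run from -1.22 for the 5S group to -0.14 for the organisers and the box C/D proteins, and that of the cytosolic ribosomal proteins is 0.04.

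Promoters of TSR1, MRTO4 and WDR12, which are among the 4 lowest genes, and of NPM1, the highest, follow because these genes stand at the ends of the range of change. They are RefSeq sequences of build GRCh38.p14, from position -70 to position 30 around the start of transcription, with the E-box CACGTG, the core site of MYC and MAX, in capitals. TSR1 lies at chr17:2336428-2336527 on the minus strand, MRTO4 at chr1:19251735-19251834 on the plus strand, WDR12 at chr2:202911644-202911743 on the minus strand and NPM1 at chr5:171387779-171387878 on the plus strand.
TSR1: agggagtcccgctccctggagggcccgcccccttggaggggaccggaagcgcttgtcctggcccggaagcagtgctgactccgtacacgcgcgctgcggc
MRTO4: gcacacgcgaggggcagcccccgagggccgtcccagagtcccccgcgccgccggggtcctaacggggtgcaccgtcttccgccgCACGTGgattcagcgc
WDR12: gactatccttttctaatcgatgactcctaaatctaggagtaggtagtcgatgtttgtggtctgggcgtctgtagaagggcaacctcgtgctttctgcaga
NPM1: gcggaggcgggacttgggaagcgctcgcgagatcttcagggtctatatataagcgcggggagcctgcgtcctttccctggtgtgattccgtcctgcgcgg
Of the 4 windows, that of MRTO4 holds the E-box.

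Searched over 250 bases before to 50 after the start (the letters read alike on both strands), CACGTG was present in 17 of the 39 members with a promoter entry, or 43.6%, against 9.97% of the promoters of all tested genes. Within 50 bases of the start it was found for 16 of the 39, or 41%, against 4% of tested genes, 17 of 100 other pathway genes and 1 of 58 ribosomal proteins. This is a description of letters in a window, not of bound sites. Among the tested members 12 of 16 with the motif and 14 of 22 without it fell in Combo, with median changes of -0.71 and -0.53. TCOF1, NOLC1, NOP58, RRP12, BOP1, RRS1, RPF2, RRP1B and POP1 had no entry.

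CPI203 alone lowered 10 of the 47 genes and raised none, with a median change of -0.23. Over all genes 6.21% fell and 6.92% rose. The lowest was BRIX1, with levels of 10.85, 10.65 and 10.61 in CPI203 arrays, against 11.66, 11.45 and 11.40 in Control arrays. The groups did not overlap, and the fall was 0.80 ± 0.10 in the fit (adjusted p = 0.0019, limma). TCOF1 fell by 0.75 ± 0.12, MRTO4 by 0.74 ± 0.15, UTP20 by 0.73 ± 0.14, TSR1 by 0.64 ± 0.14 and DKC1 by 0.63 ± 0.12. NOP16 and PPAN each fell by 0.58, GAR1 by 0.55 and RRS1 by 0.50. The level was lower in all 3 lines for 29 of the 47, against 25.2% of all genes, and for 9 the CPI203 and Control arrays did not overlap, with CPI203 lower, against 5.3% of all genes. By limma 0 genes fell when OCI-LY3 was left out, 4 when OCI-HBL1 was and 1 when OCI-LY10 was. Each of these fits also has fewer arrays, and whether the line or the number of arrays mattered was not tested. Over all lines 19 of the 47 had an unadjusted p below 0.05, against 3712 of all 13120 genes. Spike-in probe sets were higher by 0.30 ± 0.17 (SD, n = 3) in CPI203 arrays, and after scaling to them the median was -0.53.

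IRAKi alone gave 0 calls in either direction by limma, where 0.0534% of all genes fell and 0.114% rose. An unadjusted p below 0.05 was found for 12 of the 47, against 2018 of all 13120 genes. The median change was -0.17, and the change was negative for 39 of the 47, against 50.1% of all genes. The lowest were -0.59 ± 0.14 for TSR1 (adjusted p = 0.11, limma), -0.49 ± 0.12 for WDR43, -0.47 ± 0.12 for TCOF1 and -0.43 ± 0.15 for PES1, and the highest were 0.18 for POP1 and 0.14 for RCL1. The second probe sets of TSR1 and POP1 went the other way, with changes of 0.16 and -0.22. For NOLC1 the size rests on the probe set: the one used changed by -0.08, and both others by -0.85 and -0.50. Of the 47 genes 28 were lower in all 3 lines, against 19.1% of all genes, and for 5 the groups did not overlap, with IRAKi lower, against 2.46%. Without the OCI-LY10 IRAKi array, whose nonspecific signal was high, the median was -0.13, and after scaling to the spike-ins, which were higher by 0.22 ± 0.03 (SD, n = 3) in IRAKi arrays, it was -0.39.

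Set against CPI203 alone, Combo gave lower levels of 14 genes and higher levels of none, where 2.71% of all genes fell and 1.96% rose. The median change was -0.31 and 37 genes were lower in all 3 lines, against 23.2% of all genes. For 11 the Combo arrays lay wholly below the CPI203 arrays, against 3.89% of all genes. RRS1 fell furthest, with levels of 8.75, 8.95 and 8.52 in Combo arrays, against 9.74, 9.68 and 9.39 in CPI203 arrays, so that the groups did not overlap. The change was -0.87 ± 0.11 (adjusted p = 0.0095, limma). WDR12 changed by -0.79 ± 0.13, TSR1 by -0.75 ± 0.14, NOC3L by -0.75 ± 0.12, RPF2 by -0.65 ± 0.14 and WDR43 by -0.65 ± 0.12. For TSR1 the direction rests on the probe set used, since its second probe set changed by 0.37. UTP15, IMP4, BYSL, NOP16, GAR1, UTP4, NOP2 and WDR74 also fell. None of the 14 passed the test when any 1 of the lines was left out, and 1 of the 47 did in a fit of these arrays alone. Over all lines 27 of the 47 had an unadjusted p below 0.05, against 2723 of all 13120 genes.

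Against IRAKi alone, Combo lowered 26 of the 47 and raised none, with a median of -0.45, while 10.5% of all genes fell and 8.21% rose. The level was lower in all 3 lines for 36, against 25.3% of all genes, and for 16 the groups did not overlap, with Combo lower, against 6.11%. RRS1 changed by -1.02 ± 0.11, PPAN by -0.97 ± 0.13, BRIX1 by -0.93 ± 0.10, GAR1 by -0.90 ± 0.12 and MRTO4 by -0.86 ± 0.15. With a line left out, the number fallen was 5 (OCI-LY3), 17 (OCI-HBL1) or 9 (OCI-LY10), and it was 11 in a fit of these arrays alone.

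The Combo array was the lowest of the 4 treatments in all 3 lines for 31 of the 47 genes, or 66%, against 11.5% of all genes. Departure from additive log2 changes was measured by the interaction term, Combo minus CPI203 minus IRAKi plus Control. No member passed the test on it by limma, and of all genes 0% passed it downward and 0.00762% upward. An unadjusted p below 0.05 was found for 7 of the 47 members, against 1085 of all 13120 genes. The median interaction of the members was -0.16, beside -0.02 over all genes. The lowest values were -0.63 ± 0.17 for NOC3L, -0.60 ± 0.18 for UTP15, -0.52 ± 0.16 for RRS1 and -0.47 ± 0.17 for BYSL, and the highest 0.30 ± 0.17 for TCOF1. For NOC3L the size rests on the probe set used, which changed by -0.77 in Combo, -0.02 in CPI203 and -0.12 in IRAKi against Control. Its other probe set changed by -0.56, -0.13 and -0.33. These comparisons share arrays, so their values stand side by side and are not independent.

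MYC, the best known activator of the pathway, had levels of 9.73, 10.85 and 9.37 in Combo arrays, against 11.90, 11.77 and 11.08 in Control arrays, with 11.07, 11.25 and 10.71 in the CPI203 arrays and 11.39, 11.51 and 10.78 in the IRAKi arrays. It fell in Combo by 1.60 ± 0.21 (adjusted p = 0.00059, limma). In CPI203 its change was -0.57 ± 0.21 and in IRAKi -0.35 ± 0.21, neither past the test (adjusted p = 0.11 and 0.47, limma). Its change was smallest in OCI-HBL1, at -0.92, beside -2.17 for OCI-LY3 and -1.71 in OCI-LY10. The smallest fall was also in OCI-HBL1 for 23 of the 32 fallen members, or 71.9%, against 52.4% of all fallen genes. By line, the median change of the fallen members was -0.92 (OCI-LY3), -0.68 (OCI-HBL1) and -0.92 (OCI-LY10), against -0.79, -0.62 and -0.85 over all fallen genes. The part of MYC in the result was not tested.

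Other genes of the pathway, from lists that hold no members, were counted beside these. Of 39 other small-subunit genes 19 (48.7%) fell and 2 rose in Combo against Control, with a median of -0.45. Of all genes 16.7% fell and 15.4% rose in this comparison. EMG1, a pre-rRNA methyltransferase, changed by -1.87 ± 0.15 and UTP18, a processome protein, by -1.47 ± 0.17, while RIOK3, a kinase of late small-subunit particles, rose by 0.73 ± 0.18. Of 41 other large-subunit genes 18 (43.9%) fell and 2 rose, with a median of -0.27. NLE1, which helps remodel large-subunit particles, changed by -1.07 ± 0.18 and MYBBP1A, a MYB-binding protein of the nucleolus, by -1.02 ± 0.24, and SBDS, which acts on nearly finished large subunits, rose by 0.58 ± 0.13.

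Of 15 genes for snoRNP assembly and the RNase P and MRP particles, 8 (53.3%) fell and 1 rose in Combo against Control, with a median of -0.35. RPP40 and RPP30, protein subunits of those particles, changed by -1.11 ± 0.12 and -0.76 ± 0.16, and ZNHIT3 rose by 0.30 ± 0.10. Of 15 genes for RNA polymerase I and its factors 9 (60%) fell and none rose, with a median of -0.49. The shares over all genes are again 16.7% fallen and 15.4% risen. UBTF, which binds the ribosomal DNA, changed by -1.61 ± 0.19 and POLR1A, the largest subunit of the polymerase, by -1.42 ± 0.15. Of 68 cytosolic ribosomal proteins measured, 0 rose and 0 fell by limma, and their median was 0.04. The small changes were positive for 59 of the 68 and negative for 13.2%, against 50.3% negative of all genes. The level was higher in all 3 lines for 35, against 3597 of all 13120 genes. An unadjusted p below 0.05 was found for 1 of the 68, against 5469 of all 13120 genes. In CPI203 against Control 4 small-subunit, 2 large-subunit and 2 polymerase genes fell and 1 large-subunit gene rose, against the 6.21% fallen and 6.92% risen of all genes. Those fallen were 10.3% of the small-subunit, 4.88% of the large-subunit and 13.3% of the polymerase genes. In IRAKi against Control none passed the test.

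The lines also differed in their levels of these genes, compared here over 4 arrays of each line, which are 4 cultures of 1 line. In OCI-LY3 against OCI-HBL1, 15 were lower and 4 higher, with a median of -0.17, where 22.2% of all genes were lower and 25.1% higher. In OCI-LY10 against OCI-HBL1, 28 were lower and 2 higher, with a median of -0.35, where 25.8% were lower and 22.8% higher. OCI-LY3 against OCI-LY10 gave 16 higher and 6 lower genes, where 26% of all genes were higher and 20.6% lower. By these medians OCI-HBL1 stood above both other lines.

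BYSL showed the widest gap, at 8.22 to 9.31 in OCI-LY10, against 10.11 to 10.89 in OCI-HBL1 and 9.47 to 10.44 in OCI-LY3. It was lower by 1.7 ± 0.10 on the log2 scale in OCI-LY10 than in OCI-HBL1 (limma, adjusted p = 9.2e-07), with no shared level between those lines. NPM3, a small relative of NPM1, lay at 8.20 to 8.57 in OCI-LY3 and 8.51 to 8.89 in OCI-LY10, against 9.96 to 10.12 in OCI-HBL1. Its differences from OCI-HBL1 were -1.65 ± 0.10 in OCI-LY3 and -1.30 ± 0.10 in OCI-LY10. PPAN lay at 7.75 to 8.88 in OCI-LY10, below its 8.99 to 10.11 in OCI-LY3 and 9.23 to 10.04 in OCI-HBL1, and differed from OCI-HBL1 by -1.32 ± 0.11. NOP14 went the other way and was higher in OCI-LY3, at 7.65 to 8.09, against 6.57 to 6.95 in OCI-HBL1 and 6.5 to 7.05 in OCI-LY10. POP1 was highest in OCI-LY10, by 0.75 ± 0.12 over OCI-HBL1. TSR1 was higher than in OCI-HBL1 in both other lines, by 0.67 in OCI-LY3 and 0.33 in OCI-LY10.

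**Figure D4:**
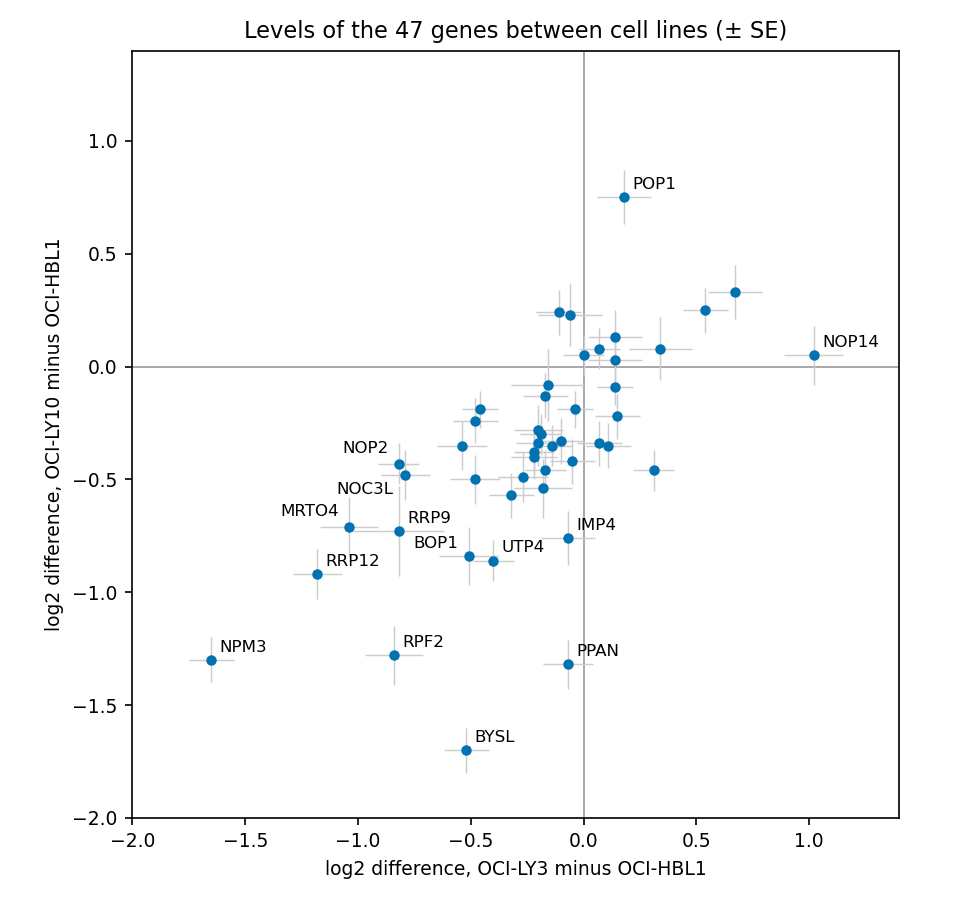
Difference in log2 level of each of the 47 genes in OCI-LY3 (horizontal) and OCI-LY10 (vertical) from OCI-HBL1, with its SE; names mark the widest differences. Both axes share the OCI-HBL1 arrays, and NPM3, BYSL, RPF2 and RRP12 lie far to the lower left.

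A member's level rests on 1 probe set, and 33 of the 48 had several. Of the other 61 probe sets above the filter, 58 changed in the same direction as the one used in Combo against Control. The number was 48 in CPI203 and 51 in IRAKi against Control, 52 in Combo against CPI203 and 50 in Combo against IRAKi. For the differences between lines it was 52 in OCI-LY3 against OCI-HBL1, 54 in OCI-LY10 against OCI-HBL1 and 48 in OCI-LY3 against OCI-LY10. In Combo against Control the sizes differed by up to 1.36, the TSR1 pair given above. One of the other NPM1 probe sets changed by 0.29. Names ending in x_at or s_at, which mark probes that may be shared between transcripts, belonged to 4 and 10 of the probe sets used, NPM1, WDR75, PPAN and UTP14A being the x_at ones.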

How the data were processed

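Total RNA (150 ng, Trizol) was turned into biotin-labelled cRNA and hybridised to 12 Affymetrix arrays. The deposited values are on the log2 scale, made by the authors with RMA (background correction, quantile normalization, probe summary) in Affymetrix Expression Console 1.1, per the submitters' processing notes. The genome build, like the probe library, is not given in the sources used here. RMA levels are relative within equal amounts of RNA, and the number of arrays limits the precision.

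Of 49386 probe sets, 45253 carried 1 gene in the platform annotation, 1327 carried several and 2713 none, and 93 were controls. Genes were tested when their probe set was above 4.2 on the log2 scale, the 40th percentile of all values, in 3 or more arrays. All 12 arrays were fitted with limma 3.58.1 in R 4.3.3 (tables read by data.table, version 1.17.8), with treatment and cell line as terms. The fit left 6 residual degrees of freedom, with a prior of 3.66. Tests were two-sided, with Benjamini-Hochberg adjustment over 13120 genes and a threshold of 0.05. Changes of a single line compare 1 array with 1 array and were not tested. The line pairs the arrays: each replicate number is 1 line, and same-line deviations from the group means correlated at 0.819 to 0.907 across genes.

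The members and lists were chosen with earlier results of these data known. Named members were those past a test, the 4 lowest and highest changes and the ends of each role group, with per-array values for the 8 lowest, the 3 highest, NCL, NPM1 and FBL. From each list without members the 2 lowest called and the highest called gene were named, and MYC as the known regulator. The fit was checked on simulated data. Alternatives were averaging over probe sets, other filters, median centring, cyclic loess, spike-in scaling, a trended and robust eBayes, weights for arrays, no replicate block, a random block, fits of only the groups compared, and arrays or lines left out. Only one-gene probe sets were used.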

Additional observations from a re-analysis of the deposited data

Results flagged for a closer look

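For 7 members the lines moved in opposite directions in Combo against Control, with 1 array on each side in every line, so that the difference between lines was not tested. None of the 7 passed the test over the 3 lines. NCL changed by -0.21 in OCI-LY3 and 0.03 in OCI-LY10, NPM1 by -0.08 in OCI-LY3 and 0.05 in OCI-HBL1, and FBL by -0.15 in OCI-LY3 and 0.09 in OCI-LY10. NHP2 changed by -0.21 in OCI-LY3 and 0.19 in OCI-HBL1, and NOP10 by -0.12 in OCI-LY3 and 0.01 in OCI-HBL1. IMP3 was at -0.43 in OCI-HBL1 and 0.05 in OCI-LY10, and BOP1 at -0.49 in OCI-LY3 and 0.03 in OCI-HBL1. No group had enough arrays to test single arrays as outliers.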

How the results depend on the processing

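A count of genes was taken as moved where it changed by over 1.5 times, and a median where it changed by more than its SD over the 3 lines, 0.03 to 0.09. By these limits 29 of 256 combinations of a result and an alternative moved, 227 did not and 0 reversed. The 227 include the counts of risen members and of the interaction term, which were 0 in every setting, and only medians could reverse. The number fallen moved in 8 of 15 alternatives for Combo against CPI203, 6 for CPI203 against Control and 5 for Combo against IRAKi. It moved in 1 for Combo against Control. The number of members fallen in Combo against Control ranged from 7 to 45 of 47, and its median change from -1.04 to -0.53. With no replicate block (cell line left out), 7 fell in Combo, 0 in CPI203 against Control, 0 in Combo against CPI203 and 0 in Combo against IRAKi. With the line as a random block 7 fell in Combo against CPI203. Scaling to the poly-A spike-ins gave medians of -0.53 in CPI203, -0.39 in IRAKi and -1.04 in Combo against Control, -0.48 in Combo against CPI203 and -0.71 in Combo against IRAKi, and 6 genes fell in Combo against CPI203. The mean of probe sets gave 9 there, and fits of only the groups compared gave 1 there and 11 in Combo against IRAKi. In CPI203 against Control 17 fell with trend and robust estimation, which called 1 gene in IRAKi, and 16 with array weights. The IRAKi median was -0.14 with median centring and -0.13 without the OCI-LY10 IRAKi array. Leaving out a line gave 0 to 4 fallen in CPI203 against Control, 0 to 0 in Combo against CPI203 and 5 to 17 in Combo against IRAKi, and IRAKi medians of -0.17 to -0.12. BRIX1, GAR1, RRS1, TSR1, UTP20, WDR12 and WDR43 kept their fall in Combo under all 15 alternatives, while NIP7 and POP1 lost it in 9. The cause of these shifts was not tested, also for the fits with fewer arrays. With 3 arrays per group, small changes of single genes lie within the spread.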
